A study of Schizosaccharomyces pombe with 4 samples.

Results

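The 10 genes described here encode glycolysis and ethanol fermentation enzymes of the fission yeast *Schizosaccharomyces pombe*. They were chosen by name, as the genes of the enzymes from aldolase to alcohol dehydrogenase that stand among the abundant mRNAs of this yeast, and they are 10 of the 12684 features counted, of which 5113 are protein-coding genes. The study compared poly(A)+ RNA, enriched on oligo(dT) beads, with total RNA depleted of ribosomal RNA, in 2 biological replicates each. All 4 libraries came from vegetative haploid *h-* cells that the labels call wild type and that carry *leu1-32* and *pat1-L95G::kanR*, a kanamycin-marked allele of the kinase gene that restrains meiosis. The cells grew for 2 days at 30 °C in EMM, a defined minimal medium, and were collected before saturation. The fractions also differed in library kit, in read length, in sequencing instrument and in how adapters were trimmed, and these cannot be told apart from the fraction. The genes are named *fba1*, *tpi1*, *tdh1*, *gpd3*, *pgk1*, *gpm1*, *eno101*, *pyk1*, *pdc101* and *adh1*. *pdc101* (SPAC1F8.07c) is often called *pdc1*, a symbol that RefSeq gives to another gene.

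Glycolysis splits glucose into pyruvate and returns ATP and NADH. In the lower part of the pathway, aldolase cleaves fructose 1,6-bisphosphate, the triose phosphates are interconverted, and the following enzymes oxidise them, make ATP and release pyruvate. Fermenting yeasts then decarboxylate pyruvate to acetaldehyde and reduce it to ethanol, which regenerates the NAD+ that glycolysis consumes, and they keep the mRNAs of these enzymes among the most abundant of the cell.

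The poly(A)+ libraries held 25530272 and 30363472 counts and the total RNA libraries 30650533 and 29055323. Protein-coding genes took 69.3% of the counts in each poly(A)+ library, against 85.9% and 86.4% in total RNA. Non-coding features with a neighbour overlapping on the other strand took 29.9% and 30.0% in poly(A)+ RNA, against 3.64% and 3.53% in total RNA. The paper describes the total RNA libraries as directional and gives no strand information for the poly(A)+ libraries. The poly(A)+ replicates lay farther apart, with a median absolute log2 ratio between replicates of 0.27 over protein-coding genes, against 0.08 in total RNA. The 5 marker genes of M cells, the mating type of *h-* strains, had 2666 to 28992 counts in poly(A)+ RNA and 4335 to 40312 in total RNA, while *map2*, which encodes the pheromone of P cells, had 6 and 10 in poly(A)+ RNA and 13 and 10 in total RNA. *map3*, which encodes the receptor that P cells use, had 765 and 1284 counts in poly(A)+ RNA and 254 and 259 in total RNA. Of the meiotic genes looked up, 5 were found in RefSeq by symbol and *mcp5* was not. *mei4*, *ssm4* and *spo5* had 14 to 59 counts in poly(A)+ RNA and 44 to 99 in total RNA. *meu10* had 233 and 162 in poly(A)+ RNA and 428 and 363 in total RNA. *ste11*, which encodes a transcription factor of mating and meiosis, had 6221 and 6370 in poly(A)+ RNA and 7675 and 8323 in total RNA.

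Together, the 10 enzyme genes took a smaller part of poly(A)+ RNA than of total RNA. They held 3.97% (95% Wilson interval 3.96 to 3.97) and 3.75% (3.75 to 3.76) of all counts in the poly(A)+ libraries, against 6.69% (6.68 to 6.70) and 6.57% (6.56 to 6.58) in the total RNA libraries. The intervals cover counting error only. The means were 3.86% ± 0.150 in poly(A)+ RNA, against 6.63% ± 0.0827 in total RNA (SD, n = 2 each), a log2 ratio of -0.78. The fractions did not overlap, but an exact permutation test over 2 against 2 libraries cannot go below p = 0.333 (two-sided), which was the value found. Of the counts on protein-coding genes alone, the enzyme genes took 5.73% and 5.42% in poly(A)+ RNA, against 7.79% and 7.61% in total RNA. When *tdh1* and *pdc101* were left out, the other 8 genes held 4.45% and 4.16% of the protein-coding counts in poly(A)+ RNA and 4.70% and 4.57% in total RNA, so *tdh1* and *pdc101* carried most of the difference. The contrast is between 2 RNA fractions of cells with the same labels, so a lower share is not a measure of lower expression in the cells.

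**Figure D1:**
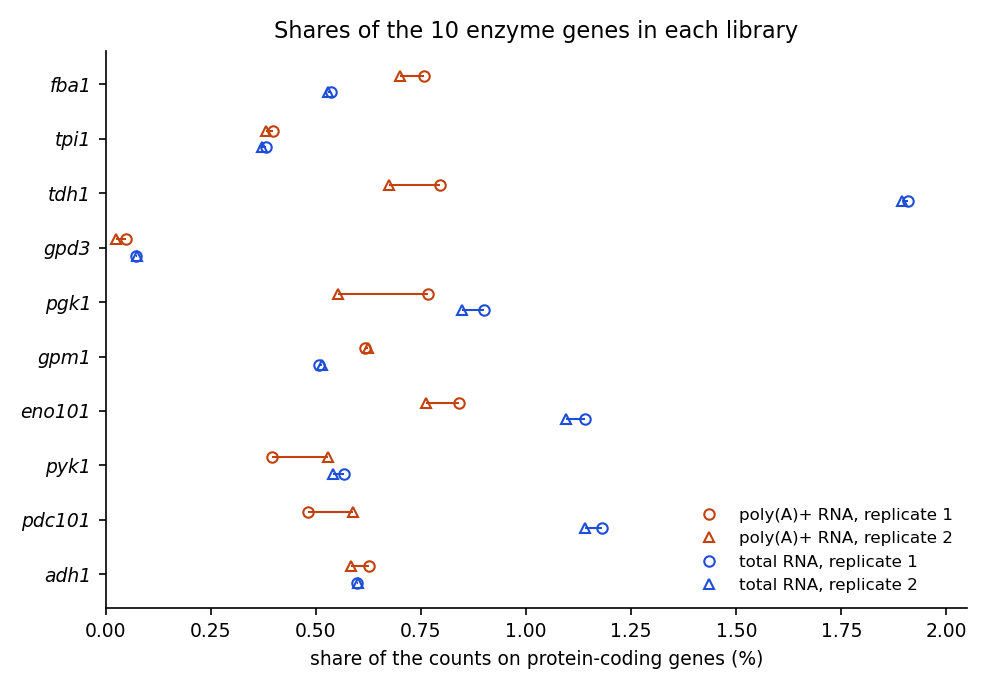
Share of the counts on protein-coding genes (x axis, percent) taken by each enzyme gene, in pathway order from top to bottom, with poly(A)+ RNA above total RNA for each gene. Each point is a library and the line joins the 2 replicates. *tdh1* took 0.795% and 0.674% in poly(A)+ RNA, against 1.91% and 1.89% in total RNA, whereas *fba1* and *gpm1* took more in poly(A)+ RNA.

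By rank of counts among protein-coding genes, 9 of the 10 genes stood in the first 30 in every library, and *gpd3* did not. The first 20 held 9 of them in each poly(A)+ library, against 8 in each total RNA library. The first 10 held 3 of them in each poly(A)+ library, against 4 and 5 in total RNA. The highest-ranked enzyme gene was *eno101* at rank 6 in both poly(A)+ libraries, against *tdh1* at rank 1 in both total RNA libraries. The protein-coding genes above *eno101* in poly(A)+ RNA were *thi2* and *nmt1* of thiamine synthesis, *met26* of methionine synthesis and *shm1*, a serine hydroxymethyltransferase, in both replicates, with the HSP70 chaperone gene *ssa2* in replicate 1 and the S-adenosylmethionine synthetase gene *sam1* in replicate 2. No protein-coding gene exceeded *tdh1* in total RNA, and among all features it ranked 3 in both libraries.

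To compare poly(A)+ with total RNA, edgeR's quasi-likelihood test was run on the 11234 features that passed its filter on low counts, and all 10 enzyme genes were among them. Under TMM scaling (trimmed mean of M-values) over all tested features, called all-feature TMM below, all 10 fell in poly(A)+ RNA at an adjusted p under 0.05 and none rose, but with TMM factors computed on protein-coding genes alone 5 fell and 1, *fba1*, rose, and with library totals alone 8 fell and none rose. Under all-feature TMM 35.5% of all tested features and 72.4% of the 5008 tested protein-coding genes were called lower, and 49.7% of features and 7.89% of protein-coding genes were called higher. With protein-coding TMM factors, 12.7% of all features and 24.4% of protein-coding genes were called lower, and 60.9% and 26.3% were called higher. With library totals, 17.0% of all features and 33.5% of protein-coding genes were called lower, and 56.7% and 18.2% were called higher. Under all-feature TMM a lower call was thus the common outcome for a protein-coding gene. The median log2 fold change over protein-coding genes was -0.93 under all-feature TMM, and values relative to that median are therefore given for the 10 enzyme genes. On that scale the 10 enzyme genes had a median of -0.46, with 8 below the median protein-coding gene and 2 above it.

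*fba1* (SPBC19C2.07, chrII:1688321-1689599, + strand, assembly ASM294v3 as all positions here) encodes fructose-bisphosphate aldolase, which opens this stretch of the pathway. It had 133880 and 147300 counts in poly(A)+ RNA, against 140776 and 132508 in total RNA. Scaled to the length of the gene in kilobases and to the protein-coding counts of the library in units of 1000000, a measure called level from here on, it stood at 5919 and 5476 in poly(A)+ RNA and at 4182 and 4126 in total RNA. Both poly(A)+ levels exceeded both total RNA levels. It ranked 11 and 7 among protein-coding genes in poly(A)+ RNA, against 18 in both total RNA libraries. Its log2 fold change was -0.60 (SE 0.11, adjusted p = 0.00272) with all-feature TMM and 0.37 (adjusted p = 0.0299) with protein-coding TMM factors, or 0.33 above the median protein-coding gene, so its direction rests on the scaling.

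*tpi1* (SPCC24B10.21, chrIII:939913-940869, + strand) encodes triosephosphate isomerase, which interconverts the triose phosphates. Its level was 4155 and 3991 in poly(A)+ RNA, against 3996 and 3896 in total RNA. The fractions overlapped on this scale. It held rank 19 and 20 in poly(A)+ RNA and rank 26 and 27 in total RNA. This gave a log2 fold change of -1.01 (SE 0.11, adjusted p = 0.000188) or -0.08 relative to the median protein-coding gene, with an adjusted p of 0.751 when protein-coding TMM factors were used.

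Glyceraldehyde-3-phosphate dehydrogenase, which oxidises glyceraldehyde 3-phosphate and reduces NAD+, is encoded by *tdh1* (SPBC32F12.11, chrII:2807595-2809051, + strand) and *gpd3* (SPBC354.12, chrII:578117-580056, + strand). Their coding sequences matched in 940 of 1008 aligned bases (93.2%), with a longest identical run of 203 bases. Their first 120 coding bases, read from the RefSeq genome (build ASM294v3), are shown as an example of how close the pair is. Capitals mark the 18 bases that differ there, of 68 mismatches in all.
tdh1, chrII:2807637-2807756, + strand: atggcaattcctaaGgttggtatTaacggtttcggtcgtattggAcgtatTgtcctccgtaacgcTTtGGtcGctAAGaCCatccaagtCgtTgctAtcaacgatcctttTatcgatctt
gpd3, chrII:578731-578850, + strand: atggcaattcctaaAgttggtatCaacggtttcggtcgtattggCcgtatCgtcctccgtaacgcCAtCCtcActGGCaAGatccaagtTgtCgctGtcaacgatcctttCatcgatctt
Of the stretches of 50 bases in these transcripts, 16.6% in *tdh1* and 18.0% in *gpd3* occurred elsewhere in the genome, against 0 in the other 8 genes. Of stretches of 150 bases, 4.13% in *tdh1* and 4.57% in *gpd3* did. Reads from the shared stretches could not be assigned with certainty. In total RNA *tdh1* had 502246 and 475471 counts, against 19208 and 18464 for *gpd3*. The same number of wrongly assigned reads would thus weigh far more on *gpd3*, and its values are the less certain of the pair. The fractions differed in read length, so the share of such reads can differ between them.

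*tdh1* had the lowest poly(A)+ over total ratio of the 10 when all libraries were used. Without replicate 1 of poly(A)+ RNA *gpd3* was lower (-2.70 against -2.56 on the log2 scale), and without replicate 2 *pdc101* was (-2.27 against -2.26). It had 140584 and 141777 counts in poly(A)+ RNA, against 502246 and 475471 in total RNA. Its level was 5456 and 4627 in poly(A)+ RNA and 13098 and 12998 in total RNA, so that both poly(A)+ libraries lay well below both total RNA libraries. It held rank 7 and 9 among protein-coding genes in poly(A)+ RNA, against rank 1 in both total RNA libraries. In the test *tdh1* had a log2 fold change of -2.43 (SE 0.15, adjusted p = 2.03e-05), or -1.49 relative to the median protein-coding gene, and 3.97% of tested protein-coding genes had a lower one.

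*gpd3* was by far the least abundant of the 10. It alone has an annotated intron, and its exons cover 1397 of its 1940 nucleotides. It had 8467 and 4927 counts in poly(A)+ RNA, against 19208 and 18464 in total RNA. Its rank among protein-coding genes was 396 and 778 in poly(A)+ RNA and 265 and 261 in total RNA. The poly(A)+ replicates differed by 1.03 on the log2 scale, more than for any other enzyme gene, yet both lay below total RNA. The log2 fold change was -2.07 (SE 0.37, adjusted p = 0.00211), or -1.14 relative to the median protein-coding gene. It moved to -2.70 without replicate 1 of poly(A)+ RNA and to -1.62 without replicate 2.

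Of this pair, *tdh1* took nearly all counts in both fractions. It held 94.3% and 96.6% of their summed counts in poly(A)+ RNA, against 96.3% in both total RNA libraries. Per nucleotide of gene, the ratio of *gpd3* to *tdh1* was 0.0452 and 0.0261 in poly(A)+ RNA and 0.0287 and 0.0292 in total RNA. The mean log2 ratio was -4.86 ± 0.56 in poly(A)+ RNA, against -5.11 ± 0.02 in total RNA (SD, n = 2 each). The difference of 0.25 was smaller than the SD between the poly(A)+ replicates, and it became -0.15 without replicate 1 of poly(A)+ RNA. An exact permutation test (two-sided), which cannot go below p = 0.333 with these libraries, gave p = 1.

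*pgk1* (SPBC14F5.04c, chrII:4157821-4159461, - strand) encodes phosphoglycerate kinase, which makes the first ATP of glycolysis to be gained. Its level was 4672 and 3364 in poly(A)+ RNA, against 5486 and 5169.8 in total RNA. Both poly(A)+ values were lower, and they stood farther from each other than the total RNA values did. It ranked 9 and 15 in poly(A)+ RNA and 7 in both total RNA libraries. Its log2 fold change was -1.45 (SE 0.20, adjusted p = 0.00072), or -0.52 relative to the median protein-coding gene, and it was not past the threshold with protein-coding TMM factors (-0.48, adjusted p = 0.0806).

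*gpm1* (SPAC26F1.06, chrI:5173864-5174654, - strand) encodes phosphoglycerate mutase, which moves the phosphate group within phosphoglycerate. It had the highest level of the 10 in poly(A)+ RNA, 7807 and 7899, against 6406 and 6504 in total RNA. The fractions did not overlap. It ranked 15 and 11 in poly(A)+ RNA, against 20 in both total RNA libraries. The log2 fold change was -0.78 (SE 0.09, adjusted p = 0.000341) with all-feature TMM and 0.19 with protein-coding TMM factors (adjusted p = 0.114), or 0.15 above the median protein-coding gene, so this gene too changed direction with the scaling.

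*eno101* (SPBC1815.01, chrII:2201196-2202652, + strand) encodes enolase, which dehydrates phosphoglycerate to phosphoenolpyruvate. It had 148691 and 160253 counts in poly(A)+ RNA, the most of the 10, against 300047 and 274931 in total RNA. Its level was 5770.3 and 5230.1 in poly(A)+ RNA and 7825 and 7516 in total RNA. Its rank hardly moved, at 6 in both poly(A)+ libraries and 5 in both total RNA libraries. In the test it stood at a log2 fold change of -1.54 (SE 0.12, adjusted p = 5.71e-05), or -0.60 relative to the median protein-coding gene.

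*pyk1* (SPAC4H3.10c, chrI:3844743-3846675, - strand) encodes pyruvate kinase, which makes the last ATP of glycolysis and releases pyruvate. Its level was 2047 and 2735 in poly(A)+ RNA, against 2931 and 2802 in total RNA. Replicate 2 of poly(A)+ RNA lay just under the total RNA libraries and replicate 1 well below them. It ranked 20 and 17 in poly(A)+ RNA and 15 in both total RNA libraries. The log2 fold change was -1.33 (SE 0.12, adjusted p = 8.52e-05), or -0.40 relative to the median protein-coding gene.

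*pdc101* (chrI:101715-103597, - strand) encodes pyruvate decarboxylase, the first enzyme of ethanol fermentation. It had 85165 and 123651 counts in poly(A)+ RNA, against 310897 and 285947 in total RNA. Its level was 2557 and 3123 in poly(A)+ RNA and 6274 and 6048 in total RNA, so that both poly(A)+ libraries lay far below both total RNA libraries. It ranked 18 and 13 in poly(A)+ RNA, against 4 in both total RNA libraries. Its log2 fold change was -2.19 (SE 0.09, adjusted p = 6.82e-06), or -1.25 relative to the median protein-coding gene, and 6.69% of tested protein-coding genes had a lower one.

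*adh1* (SPCC13B11.01, chrIII:1591292-1592889, + strand) encodes alcohol dehydrogenase, which reduces acetaldehyde to ethanol. Its level was 3919 and 3656 in poly(A)+ RNA, against 3744 and 3757 in total RNA. The total RNA values lay between the poly(A)+ values, so the fractions overlapped. It ranked 14 in both poly(A)+ libraries, against 12 and 10 in total RNA. The log2 fold change was -1.04 (SE 0.11, adjusted p = 0.000213), or -0.11 relative to the median protein-coding gene, and it was not past the threshold with protein-coding TMM factors (adjusted p = 0.601). Pyruvate decarboxylase and alcohol dehydrogenase, the enzymes of consecutive steps, thus stood at a log2 fold change of -2.19 and -1.04.

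**Figure D2:**
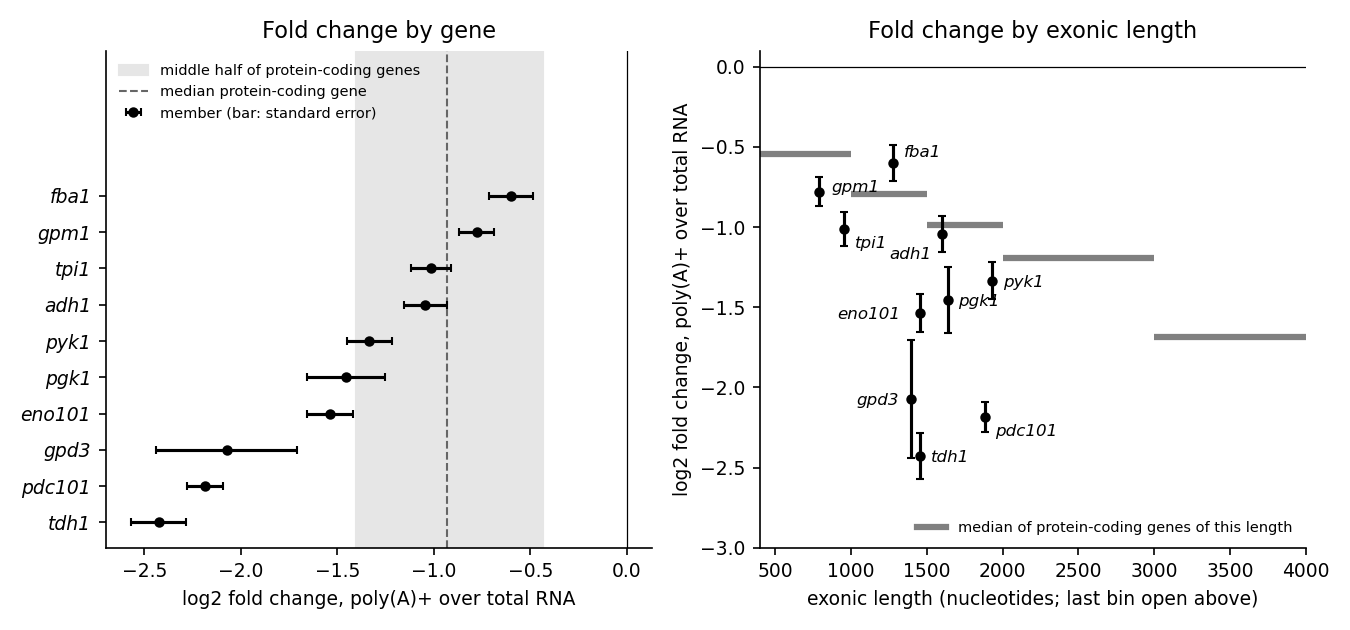
Left, log2 fold change of poly(A)+ over total RNA for each enzyme gene with its standard error, the median protein-coding gene (-0.93, dashed) and the range between the quartiles of protein-coding genes (-1.40 to -0.43, grey). Right, the same fold changes against exonic length in nucleotides, with the median of protein-coding genes in each length class as grey bars. *tdh1*, *pdc101*, *gpd3*, *eno101* and *pgk1* lay below the grey band, and all genes but *fba1* lay below the median of their length class.

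The order of the levels differed between the fractions. In poly(A)+ RNA it ran, from the highest mean level, *gpm1* (7853), *fba1* (5698), *eno101* (5500.2), *tdh1* (5041), *tpi1* (4073), *pgk1* (4018), *adh1* (3787), *pdc101* (2840), *pyk1* (2391) and *gpd3* (184). The replicate ranges of *fba1* and *eno101*, of *eno101* and *tdh1*, of *tpi1* and *pgk1*, of *pgk1* and *adh1*, and of *pdc101* and *pyk1* overlapped, so these neighbours were not separated by their spread. In total RNA it ran *tdh1* (13048), *eno101* (7670.2), *gpm1* (6455), *pdc101* (6161), *pgk1* (5328), *fba1* (4154), *tpi1* (3946), *adh1* (3750.1), *pyk1* (2867) and *gpd3* (378), and no neighbours overlapped. Leaving out *gpd3*, the highest mean level exceeded the lowest 3.28 times in poly(A)+ RNA and 4.55 times in total RNA.

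Long protein-coding genes had lower fold changes than short ones in these libraries, and the enzyme genes were set against genes of their own length. Spearman's rho between log2 fold change and exonic length was -0.40 over the 5008 protein-coding genes and -0.50 over the 10 enzyme genes, as descriptions across genes that share the same libraries. The median log2 fold change was -0.55 for protein-coding genes under 1000 nucleotides, -0.79 from 1000 to 1500, -0.99 from 1500 to 2000, -1.20 from 2000 to 3000 and -1.69 from 3000. Of the 10 enzyme genes, 9 lay below the median of their length class and 1, *fba1*, lay 0.19 above it. The length classes were not matched for abundance, and these genes were chosen among abundant mRNAs. Spearman's rho between log2 fold change and level in total RNA was -0.38 over protein-coding genes and -0.27 over the 10 enzyme genes. *tdh1* stood at -1.64 from that median, *gpd3* at -1.28 and *pdc101* at -1.20, while *adh1* stood at -0.06.

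Annotated long non-coding features lie on the opposite strand of 7 of the 10 genes, and their counts followed the fraction. Such overlaps are common, since 89.2% of the 12684 features counted overlap a feature of some kind on the opposite strand. There are 8 such features, all called higher in poly(A)+ RNA by edgeR, as were 83.4% of the 6226 tested features other than protein-coding genes. They held 349266 and 380286 counts in poly(A)+ RNA, against 3809 and 3343 in total RNA. *pgk1* lies within SPNCRNA.6456 (chrII:4157103-4160830, + strand), which had 134403 and 113042 counts in poly(A)+ RNA and 665 and 591 in total RNA. The poly(A)+ counts of SPNCRNA.6456 were 0.991 and 0.974 times those of *pgk1* itself. *adh1* lies within *adh1AS* (SPNCRNA.1710, chrIII:1590025-1593983, - strand), an antisense RNA named for it, with 106468 and 114722 counts in poly(A)+ RNA against 2191 and 1954 in total RNA.

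The features that lie wholly inside an enzyme gene had more counts per nucleotide than that gene in poly(A)+ RNA. SPNCRNA.3712 (chrI:3844754-3845928) inside *pyk1* had 1.14 times its counts per nucleotide in both poly(A)+ libraries, against 0.00570 and 0.00576 in total RNA. For SPNCRNA.2047 (chrI:102517-102852) inside *pdc101* the ratio was 1.56 and 1.51 in poly(A)+ RNA, against 0.00334 and 0.00229 in total RNA. For SPNCRNA.2048 (chrI:103264-103567), also inside *pdc101*, it was 1.09 and 1.04 in poly(A)+ RNA, against 0.00307 and 0.00292 in total RNA. In total RNA all 3 stood far below the gene around them.

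Features that overlap an end of an enzyme gene had lower ratios in poly(A)+ RNA than those inside one. SPNCRNA.5300, which shares 101 bases with *fba1*, had 17113 and 18279 counts in poly(A)+ RNA and 34 and 29 in total RNA. SPNCRNA.4780, which shares 643 bases with *gpd3*, had 3870 and 2579 counts in poly(A)+ RNA and 49 and 32 in total RNA. SPNCRNA.4334, which shares only 5 bases with *gpm1*, had 285 and 411 counts in poly(A)+ RNA and 14 and 9 in total RNA. The poly(A)+ counts over such overlaps cannot be assigned to a strand, because the strand option used in counting is not given in the sources used here. Nor do these sources say whether the poly(A)+ libraries kept the strand, while the total RNA libraries were directional. Whether these counts, and the higher calls made on them, came from RNA of the enzyme genes was not tested. The 3 genes with no annotated feature on the opposite strand, *tdh1*, *eno101* and *tpi1*, had log2 fold changes of -2.43, -1.54 and -1.01, against -2.19 to -0.60 in the other 7. *tdh1* lay below that range and *eno101* and *tpi1* within it. On its own strand, *gpm1* shares 30 bases with *mug106*, which had 8224 and 9822 counts in poly(A)+ RNA and 5430 and 5453 in total RNA.

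**Figure D3:**
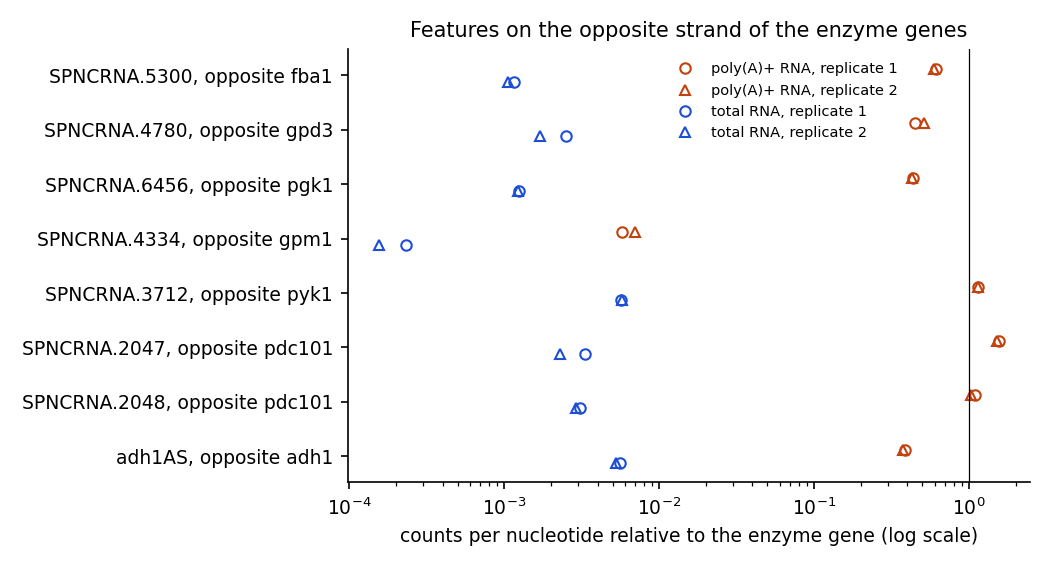
Counts per nucleotide of each feature on the opposite strand, relative to those of the enzyme gene it overlaps (x axis, log scale), with poly(A)+ RNA above total RNA for each feature and 1 point per library. In poly(A)+ RNA 7 of the 8 features lie between 0.377 and 1.56, whereas in total RNA none exceeds 0.00576.

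The other genes of carbon metabolism were read from a list of 42 symbols, of which 41 were found and 39 passed the filter. Of these 39, 23 fell in poly(A)+ RNA, 4 rose and 12 were not past the threshold, and with protein-coding TMM factors 14 fell and 11 rose. Over all tested protein-coding genes, 72.4% fell and 7.89% rose with all-feature TMM. With protein-coding TMM factors 24.4% fell and 26.3% rose. The counts of calls in the groups below stand against these same shares, under which a fall with all-feature TMM was the common outcome. Set against the median protein-coding gene, their median log2 fold change stood at 0.01, and that of the 10 enzyme genes at -0.46. On the same scale the group medians ran from -0.90 in upper glycolysis to 1.89 in hexose uptake, but values of single genes overlapped between several groups.

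The 4 genes of upper glycolysis, which phosphorylate glucose and prepare it for cleavage, all fell under TMM over all features and under TMM over protein-coding genes. *hxk1* and *hxk2* encode hexokinases, *pgi1* glucose-6-phosphate isomerase and *pfk1* phosphofructokinase. Their log2 fold changes were -2.11 for *hxk1* (adjusted p = 2.74e-05), -1.95 for *pfk1* (adjusted p = 2.22e-05), -1.72 for *hxk2* (adjusted p = 0.00014) and -1.54 for *pgi1* (adjusted p = 0.000158). *pfk1*, with an annotated span of 3228 nucleotides, is the longest of them. The group had a median of -0.90 relative to the median protein-coding gene. It was not set against genes of its own length, although long protein-coding genes had lower fold changes in these libraries.

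The other isoforms had fewer counts than the main gene of their enzyme in every library, and they did not move together. *eno102*, a second enolase gene, had 144 and 277 counts in poly(A)+ RNA, against 8 and 16 in total RNA, and rose with a log2 fold change of 3.42 (SE 0.47, adjusted p = 0.000642). *adh4*, an alcohol dehydrogenase gene, had 2246 and 4489 counts in poly(A)+ RNA, against 8883 and 7551 in total RNA, and fell with a log2 fold change of -1.99 (adjusted p = 0.000222). The pyruvate decarboxylase genes *pdc201* (0.04, adjusted p = 0.921) and *pdc202* (0.14, adjusted p = 0.606) were not past the threshold with all-feature TMM, but with protein-coding TMM factors both rose, to 1.01 (adjusted p = 0.0466) for *pdc201* and 1.12 (adjusted p = 0.00811) for *pdc202*. *pdc102*, with at most 2 counts in any library, was not tested. Coding sequences of these isoforms matched those of their main gene in 62.7% to 65.1% of aligned bases, with no identical run over 20 bases, which sets them apart from the *tdh1* and *gpd3* pair.

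Of the hexose transporter genes, 7 of 8 were tested, of which 3 rose and 1 fell. *ght6* rose with a log2 fold change of 3.20 (adjusted p = 0.000111), with 312 and 386 counts in poly(A)+ RNA against 22 and 26 in total RNA. *ght3* (1.57, adjusted p = 0.00855) and *ght5* (1.40, adjusted p = 0.0292), named after their values were seen, also rose. The *ght5* counts were 56708 and 25200 in poly(A)+ RNA, and its levels there differed by 1.42 on the log2 scale between replicates. *ght8*, the transporter gene with the most counts over the 4 libraries together, stood at 0.16 (adjusted p = 0.455) with all-feature TMM and rose with protein-coding TMM factors (1.14, adjusted p = 0.00303). *ght5* had more counts than *ght8* in replicate 1 of poly(A)+ RNA. *ght2* fell by 1.02 on the log2 scale (adjusted p = 0.000263), though with protein-coding TMM factors it stood at -0.05 (adjusted p = 0.74). *fbp1*, which encodes the fructose-1,6-bisphosphatase of gluconeogenesis, stood at 0.46 (adjusted p = 0.0988) with all-feature TMM and rose with protein-coding TMM factors.

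Genes that lead carbon away from ethanol gave a mixed picture. In the glycerol branch *gpd2* fell, at -1.72 (adjusted p = 4.79e-05), while *gpd1* stood at -0.02 (adjusted p = 0.978) and *gut2* at 1.59 (adjusted p = 0.162). The *gut2* counts were 18770 and 2246 in poly(A)+ RNA and 2949 and 2057 in total RNA, so its poly(A)+ replicates differed more than the fractions. The poly(A)+ levels of *gpd1* differed by 1.60 on the log2 scale between replicates. The aldehyde dehydrogenase gene *atd1* (-1.41, adjusted p = 0.00125) and the acetyl-CoA synthetase gene *acs1* (-2.20, adjusted p = 1.11e-05) fell, though with protein-coding TMM factors *atd1* was not past the threshold (-0.44, adjusted p = 0.128). All 5 genes of mitochondrial pyruvate oxidation fell, among them *pda1* (-1.45, adjusted p = 3.81e-05), *lat1* (-1.12, adjusted p = 9.66e-05) and *pdx1* (-1.74, adjusted p = 9.15e-05), and with protein-coding TMM factors 4 did. In the tricarboxylic acid cycle 9 of 13 genes fell, from *kgd1* (-1.78, adjusted p = 0.000144) and *aco1* (-1.52, adjusted p = 0.000148) at the low end, while *sdh3* stood at 0.10 (adjusted p = 0.547), and with protein-coding TMM factors 3 fell and 3 rose.

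**Figure D4:**
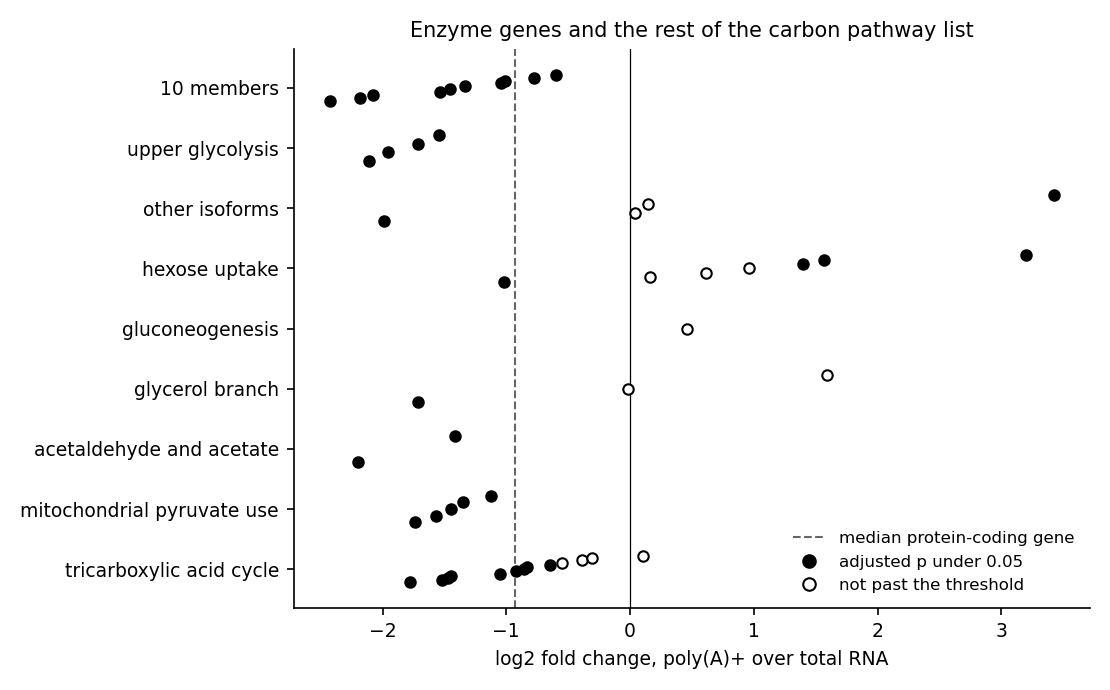
Log2 fold change of poly(A)+ over total RNA (x axis) for the 10 enzyme genes and the 39 tested genes of the carbon metabolism list, by group, with 1 point per gene. Filled points passed the threshold with all-feature TMM, open points did not, and the dashed line is the median protein-coding gene at -0.93. Upper glycolysis lies wholly below that line, and hexose uptake reaches 3.20.

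The 10 genes share features of sequence that did not enter their choice. In all 10 the letters TATA, which read the same on both strands, began 45 to 25 bases before the annotated start, against 24.5% of 5112 protein-coding promoters and 24% of the 100 other protein-coding genes with the highest level in total RNA. Overlapping matches were counted as 1 hit per promoter. The window was set after the sequences had been seen, and a match is a description of these letters only. The 60 bases upstream of 4 starts, from the RefSeq genome (build ASM294v3), are shown for the genes with the lowest (*tdh1*, *pdc101*) and the highest (*fba1*, *gpm1*) fold changes over all libraries, with the TATA matches in capitals.
tdh1, chrII:2807535-2807594, + strand: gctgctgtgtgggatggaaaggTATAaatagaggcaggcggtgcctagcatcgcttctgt
pdc101, chrI:103598-103657, - strand: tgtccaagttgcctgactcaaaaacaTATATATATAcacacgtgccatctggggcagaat
fba1, chrII:1688261-1688320, + strand: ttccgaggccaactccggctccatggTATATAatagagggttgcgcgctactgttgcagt
gpm1, chrI:5174655-5174714, - strand: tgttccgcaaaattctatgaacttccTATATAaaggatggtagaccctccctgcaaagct
The first match began 38 bases before the start of *tdh1* and 34 bases before those of *pdc101*, *fba1* and *gpm1*. Matches were sought only from 45 to 25 bases before the start, so similar distances were fixed by the window.

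Codon use also set the 10 genes apart from most genes. A codon was called preferred when it was the most used one for its amino acid in 139 ribosomal protein genes. Preferred codons made up 58.2% of codons in *tdh1*, the lowest of the 10, to 69.0% in *tpi1*, the highest, against a median of 39.2% over 4957 protein-coding genes outside ribosomal proteins. *tdh1* exceeded 98.0% of those genes and *tpi1* 99.9%. *gpd3* had 59.6% preferred codons, close to *tdh1*, although its level was far lower. The rarer isoforms held 40.7% in *eno102*, 40.4% in *pdc102*, 47.0% in *pdc202*, 48.8% in *pdc201* and 53.6% in *adh4*, all below the 10 genes. Of the protein-coding genes outside ribosomal proteins, *adh4* still exceeded 96.3%, *pdc201* 91.65% and *pdc202* 88.6%, against 62.8% for *eno102* and 60.8% for *pdc102*. Codon use of the 10 genes was not compared with that of other abundant genes. Across 5074 protein-coding genes the share of preferred codons followed the level in total RNA with a Spearman's rho of 0.61, as a description across genes that share the same libraries.

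**Figure D5:**
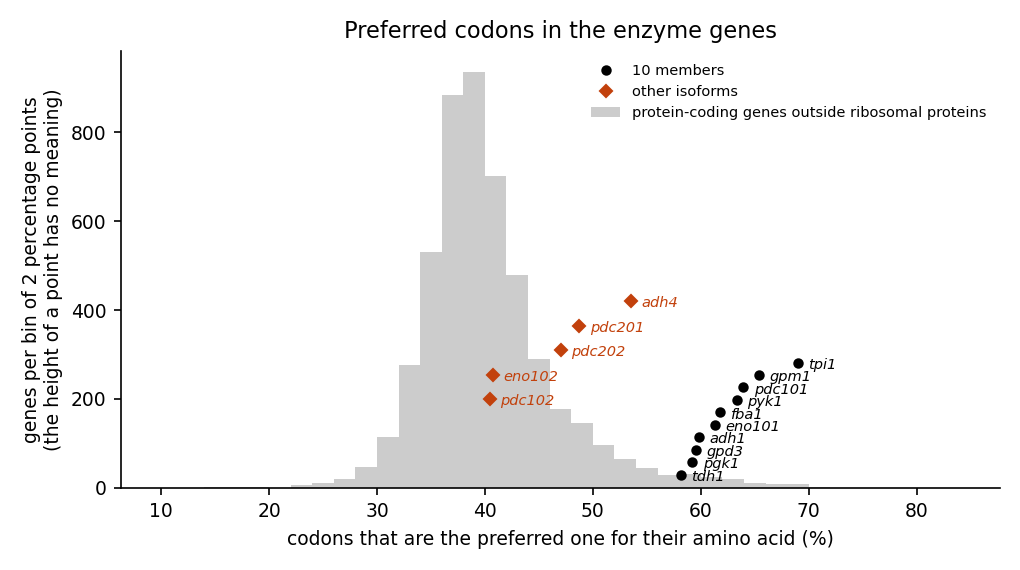
Share of preferred codons (x axis, percent) in protein-coding genes outside ribosomal proteins (grey histogram, genes per bin), in the 10 enzyme genes (black points) and in other isoforms of the same enzymes (orange diamonds), whose heights carry no value. The 10 genes lie between 58.2% and 69.0% and the isoforms between 40.4% and 53.6%.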

How the data were processed

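Poly(A)+ and total RNA of vegetative *h-* cells were compared in 2 biological replicates each. The authors trimmed adapters with cutadapt 1.15 or fastp 0.23.1, aligned reads with STAR 2.6.1d and counted them on genes with featureCounts (Subread 2.0.6), per the paper's methods and the submitters' processing notes. The deposited counts are raw. The genome build and the options for strand and for reads that fit several genes are not given in the sources used here. The deposited header has 9 cells over 8 fields, so fields were taken by position. Field 7 (replicate 1), recorded as other because the misplaced header calls it a length, and field 8 (replicate 2) both hold counts as deposited by the authors. Features were matched to RefSeq (ASM294v3) by identifier (12602 of 12684), and all 10 enzyme genes had the same start and end there.

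Counts were tested with edgeR 4.0.16 in R 4.3.3 (filterByExpr, TMM, glmQLFit, glmQLFTest) with Benjamini-Hochberg adjustment over 11234 features at 0.05, and the test was tried on simulated data. Standard errors are the log2 fold change divided by the square root of F. Shares, ranks and exact permutation tests used Python 3.11.15, scipy 1.17.1 and Wilson intervals at 95%. Coding sequences were aligned with Biopython 1.88.

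Alternatives were other normalizations, DESeq2 1.42.0, other filters, a replicate block, each library left out and other denominators. Summing *tdh1* and *gpd3*, exonic length and leaving out genes with opposite-strand features were chosen after seeing the data. The members and lists were chosen with earlier results of these data known. All 10 enzyme genes are named. Of the pathway list, upper glycolysis, isoforms and *fbp1* are named, and in each other group the gene with most counts and the highest and lowest fold change. Protein-coding genes above the highest enzyme gene and features on the opposite strand are named too. *mug106* and the marker genes were added.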

Additional observations from a re-analysis of the deposited data

How the results depend on the processing

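The scaling between the fractions decided part of the calls. With TMM factors from protein-coding genes, 5 enzyme genes fell and 1 rose, and *fba1* stood at 0.37 and *gpm1* at 0.19, both reversed from TMM over all features, while *tpi1* (-0.04), *pgk1* (-0.48) and *adh1* (-0.07) were no longer past the threshold. With library totals alone, *fba1* stood at 0.14 (adjusted p = 0.0849) and *gpm1* at -0.03 (adjusted p = 0.636). Of the other pathway genes, 11 rose and 14 fell with protein-coding TMM factors and 9 rose with library totals, against 4 that rose and 23 that fell with TMM over all features. Of the 119 alternative fold changes of the 10 genes, 112 kept direction and side of the threshold, 4 lost the call and 3 reversed. Leaving out each library in turn kept 10 of 10 lower, and the other pathway genes had 3 to 10 higher and 20 to 30 lower calls. Their count was 10 higher without replicate 2 of poly(A)+ RNA. The median of the enzyme genes relative to the median protein-coding gene ranged from -0.51 to -0.33 when a library was left out, with -0.33 without replicate 2 of poly(A)+ RNA. A fraction left with 1 library was assumed to vary like the other, although the poly(A)+ replicates differed more. Among the 3 genes without a feature on the opposite strand, all 3 fell with all-feature TMM, as did 72.4% of tested protein-coding genes. With protein-coding TMM factors *tpi1*, which is among the 3, was not past the threshold. As a share of protein-coding counts, the log2 ratios of *tpi1* (0.046), *gpm1* (0.28) and *adh1* (0.014) turned positive, and per nucleotide that of *fba1* turned negative (-0.17). The log2 ratio of *gpd3* to *tdh1* differed by -0.15 to 0.64 between the fractions when a library was left out, with -0.15 without replicate 1 of poly(A)+ RNA.

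Same-numbered replicates deviated together with a correlation of -0.02 across genes. Whether same-numbered libraries came from the same culture is not stated in the sources used here. The correlation cannot settle it, because the poly(A)+ replicates varied far more than the total RNA replicates. With the replicate block, 10 enzyme genes fell and 0 rose, and 24 other pathway genes fell and 4 rose, against 23 and 4 without it.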
